A study of Mus musculus with 6 samples.

Results

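The NKR-P1 receptors and their Clec2 ligands were examined through 7 mouse genes of chromosome 6, of 19057 gene symbols on the array, namely Klrb1a, Klrb1c, Klrb1f, Clec2d, Clec2i, Cd69 and Klrg1. They were chosen by name, and every array probe annotated to one of them was taken, which gave 10 of 45263 probes. Of these, 7 probes of 5 genes passed the detection filter (3 or more of the 6 arrays with a detection p under 0.05), as did 17462 probes in all. Transcripts were measured on Illumina bead arrays in thymic natural killer T cells (NKT cells, T lymphocytes that see lipids on CD1d) of male C57BL/6 mice. All samples were sorted as mature cells, positive for CD44 and NK1.1, with 3 CD103+ arrays and 3 CD103- arrays, called biological replicates in the series text. The age of the mice and any pooling of animals are not given in the sources used here.

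The Klrb1 and Clec2 genes lie next to each other in the natural killer gene complex and encode C-type lectin-like receptors and ligands. NKR-P1C, the product of Klrb1c, is the NK1.1 antigen of C57BL/6 mice and an activating receptor that signals through the Fc receptor gamma chain. NKR-P1F (Klrb1f) binds Clr-g, the product of Clec2i, and the inhibitory NKR-P1B receptor (Klrb1b) binds Clr-b, the product of Clec2d. CD69 is a related lectin-like protein that appears early on activated lymphocytes and draws the sphingosine 1-phosphate receptor S1PR1 from the cell surface, which keeps cells in the tissue. KLRG1 is an inhibitory receptor of antigen-experienced T cells and NK cells and binds cadherins, E-cadherin among them. Since Klrb1c encodes a sort marker, every cell of both populations was chosen for its protein.

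In the RefSeq gene order of chromosome 6, Klrb1a came first, followed by Klrb1c, Klrb1b, Clec2i, Klrb1f, Clec2d and Cd69, with other family genes between them. Klrg1 lay outside that run, with 228 annotated genes between it and Klrb1a. The sequences upstream of 4 receptor genes are shown because these neighbours had unlike signals: Klrb1c and Klrb1f were detected on all 6 arrays, Klrb1a on 1 array, and Klrb1b is the family gene outside the 7 with a probe past the test. Each is the 250 bases before the RefSeq start in GRCm38.p6, 5′ to 3′ on the strand of the gene, and capitals mark the RUNX core. Klrb1b has 2 listed starts, and only the window of the first listed is shown and compared.
Klrb1c, chr6:128788642-128788891, minus strand: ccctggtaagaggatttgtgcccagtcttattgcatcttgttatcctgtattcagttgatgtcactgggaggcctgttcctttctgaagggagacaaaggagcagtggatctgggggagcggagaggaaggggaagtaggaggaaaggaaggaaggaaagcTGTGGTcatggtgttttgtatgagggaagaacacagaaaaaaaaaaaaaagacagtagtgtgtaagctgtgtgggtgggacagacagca
Klrb1a, chr6:128622935-128623184, minus strand: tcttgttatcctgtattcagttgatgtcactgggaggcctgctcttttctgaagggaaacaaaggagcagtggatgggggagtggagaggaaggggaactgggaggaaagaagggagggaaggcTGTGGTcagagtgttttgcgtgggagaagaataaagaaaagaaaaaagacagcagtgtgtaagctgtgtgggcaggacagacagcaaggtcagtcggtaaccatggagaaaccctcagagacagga
Klrb1f, chr6:129045651-129045900, plus strand: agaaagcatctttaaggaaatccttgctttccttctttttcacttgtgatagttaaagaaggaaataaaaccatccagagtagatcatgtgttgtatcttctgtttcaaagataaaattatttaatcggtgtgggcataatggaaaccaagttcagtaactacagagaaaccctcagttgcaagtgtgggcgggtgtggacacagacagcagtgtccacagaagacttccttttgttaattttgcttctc
Klrb1b, chr6:128826316-128826565, minus strand: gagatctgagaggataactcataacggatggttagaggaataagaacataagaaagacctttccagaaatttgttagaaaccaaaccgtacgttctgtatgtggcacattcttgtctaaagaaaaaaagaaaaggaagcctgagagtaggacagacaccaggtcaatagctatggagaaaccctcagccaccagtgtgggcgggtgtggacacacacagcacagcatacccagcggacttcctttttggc

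The windows were searched on both strands for the RUNX core TGTGGT, the T-box core AGGTGT and the AP-1 motif TGANTCA, and no matches overlapped. Klrb1c and Klrb1a each held 1 RUNX core, 84 to 89 and 121 to 126 bases before the start, a motif found in 14.0% of 32851 RefSeq windows of that length. None of the 3 motifs, spelled that way, stood in the windows of Klrb1f and Klrb1b (11.8% of all windows held the T-box core and 6.75% the AP-1 motif). In a global alignment the Klrb1c and Klrb1a windows were identical in 64.8% of aligned columns, against 45.7% for Klrb1c and Klrb1b and 48.2% for Klrb1c and Klrb1f. The upstream sequences of Klrb1c and Klrb1a were thus the most alike of these pairs, while the transcript of only one of them was detected throughout. These matches describe letters and do not show binding.

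No probe of the 7 genes differed between CD103+ and CD103- cells past the threshold, an adjusted p of 0.05 in limma with Benjamini-Hochberg adjustment over all 17462 tested probes. At an unadjusted p under 0.05 the count was 1 of 7 probes. Over all tested probes 1.18% passed the adjusted threshold (0.928% higher and 0.252% lower in CD103+ cells) and 15.1% the unadjusted one, so both counts lay near the background. The median log2 difference over the brightest probes of the 5 measured genes was 0.10, against 0.05 over 8999 measured genes. The arrays of the populations did not overlap for 2 of the 7 probes, 1 higher and 1 lower in CD103+ cells, where 13.0% and 8.92% of all probes did so. For a single probe, an exact permutation test of 3 arrays against 3 cannot go below 0.1.

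**Figure D1:**
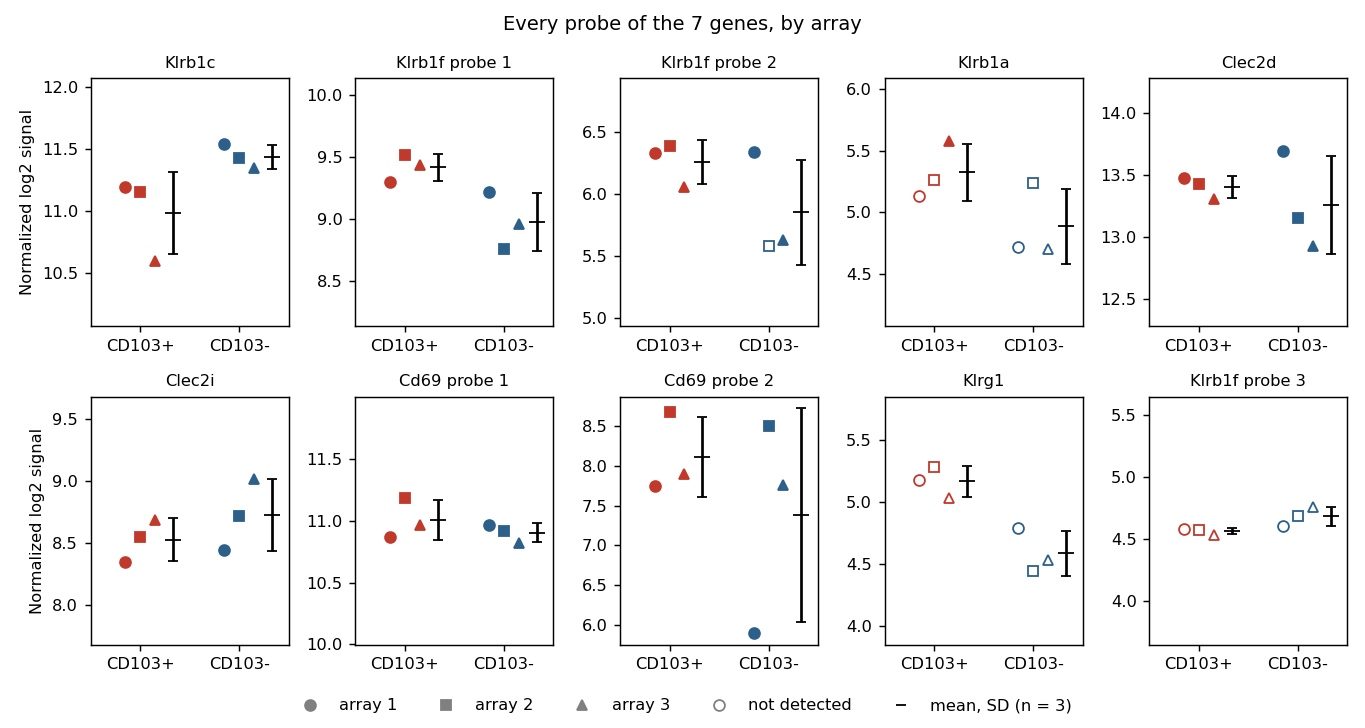
Normalized log2 signal of each of the 10 probes by array, with CD103+ arrays left of CD103- arrays, open symbols for arrays on which a probe was not detected, and bars for the mean and SD (n = 3). Of the 7 tested probes, Klrb1c and Klrb1f probe 1 show no overlap between the populations. Klrg1 and Klrb1f probe 3 show none either, but were not detected on any array. Cd69 probe 2 lies far lower on CD103- array 1 (5.90) than on the other 5 arrays.

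The arrays differed in brightness, with mean signals over all probes of 501.6 to 825.9 on CD103+ arrays, against 526.1 on CD103- array 1 and 277.4 and 276.5 on CD103- arrays 2 and 3. Itgae, which encodes the CD103 chain, lay at a normalized log2 signal of 13.43, 13.80 and 13.57 on the CD103+ arrays, against 8.61, 9.07 and 8.94 on the CD103- arrays, so the arrays matched their labels. The 8 genes of the NKT identity list were detected on all 6 arrays, and Itgae alone passed the test. The transcription factor genes Zbtb16 and Tbx21 lay at -0.68 (limma adjusted p = 0.0753) and -0.37 (adjusted p = 0.442). The cytokine receptor gene Il2rb lay at -0.66 (adjusted p = 0.152). Besides Itgae, the groups did not overlap for Zbtb16 and Il2rb, both lower in CD103+ cells, and for Cd3e (0.10) and Cd3g (0.31), both higher. Over all tested probes 8.92% lay lower and 13.0% higher without overlap. Of the 8 genes 4 had a positive and 4 a negative difference, with a median of -0.02. The lists here and below were chosen with earlier results of these data known, and 1.38% of all measured genes were called in either direction. The macrophage list held the most called genes: 7 of 9 measured genes were higher and its summed normalized signal was 2661 to 3253 in CD103+ cells, against 326.9 to 367.8 in CD103- cells. Of those 7 genes, 5 were detected on no CD103- array and so passed the filter only through CD103+ arrays, which makes the count a description. Of 6 NK cell markers the defining genes Ncr1 and Eomes were not detected on any array, 1 of 4 measured genes was higher, and the summed signal was 742.4 to 865.1 against 581.2 to 707.6. Of the gamma delta T cell list 2 of 3 measured genes were higher. These 2 genes, and the called NK cell marker Klri1, likewise passed the filter only through CD103+ arrays. No gene was called on the lists of CD8 and double-positive (CD4 and CD8) thymocytes (3 measured), B cells (1 measured) and mast cells (1 measured). The summed signal of the thymocyte list was 1528 to 1876 in CD103+ cells, against 2115 to 2209 in CD103- cells. Its gene Cd8b1 was detected on all 6 arrays (log2 difference -0.38, limma adjusted p = 0.296 on the brightest probe). So was the brightest probe of Cd4 (-0.47, adjusted p = 0.364). Rag1 was detected on 5 of the 6 arrays (0.31, adjusted p = 0.851). Ptcra was detected on 2 arrays, and Cd8a and Rag2 were not detected.

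Among the receptors, Klrb1c (ILMN_2952650) had a normalized log2 signal of 11.19, 11.15 and 10.60 in CD103+ cells, against 11.54, 11.42 and 11.35 in CD103- cells. All CD103+ arrays lay below all CD103- arrays, and CD103+ array 3 was the lowest. The means were 10.98 ± 0.33 in CD103+ and 11.44 ± 0.10 in CD103- cells (SD, n = 3 each). The log2 difference was -0.46 (SE 0.195, 95% confidence interval -0.91 to 0.00, limma adjusted p = 0.332), or 1.37-fold lower without passing the test. It stayed between -0.78 and -0.26 over the alternatives except for median scaling over all probes (0.65), a scaling that moved the median of all tested probes by 0.96. Without the dim CD103- arrays 2 and 3 it was -0.56. That setting, the bright arrays alone, holds a single CD103- array (n = 1), takes its spread from the CD103+ arrays and assumes that the lone array varies like them. For Klrb1c, leaving out CD103+ array 3 gave -0.26. In bulk RNA, fewer cells with a transcript and less of it per cell cannot be told apart.

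Klrb1f, the receptor gene for the Clr-g ligand, had values above those of CD103- cells on its brightest probe (ILMN_2604651). They were 9.30, 9.52 and 9.43 in CD103+ cells, against 9.22, 8.75 and 8.96 in CD103- cells, so that the lowest CD103+ array lay just above the bright CD103- array 1. The means were 9.42 ± 0.11 in CD103+ and 8.98 ± 0.23 in CD103- cells (SD, n = 3 each). The log2 difference was 0.44 (SE 0.168, 95% confidence interval 0.05 to 0.83, adjusted p = 0.292), or 1.36-fold, and did not pass. Against CD103- array 1 alone (n = 1), the highest of the CD103- arrays here, it was 0.20.

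Klrb1f probe 2 (ILMN_2694646), dimmer than the first and not detected on CD103- array 2, gave 6.34, 6.39 and 6.06 in CD103+ cells, against 6.34, 5.58 and 5.63 in CD103- cells. Here CD103- array 1 lay within the CD103+ range, and the log2 difference was 0.41 (adjusted p = 0.458). Against that array alone (n = 1) it was -0.08, a sign set by 1 array. Klrb1f probe 3 (ILMN_2499201) was not detected on any array, with detection p from 0.362 to 0.748. The 3 probes of this gene therefore differed in whether they gave a signal at all, and the files hold no probe sequences to compare.

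Klrb1a, which encodes the receptor NKR-P1A, was close to background. Its probe (ILMN_2602983) was detected on CD103+ array 3 alone, with detection p from 0.0118 to 0.435 over the 6 arrays. The deposited signals were 172.4, 215.2 and 167.5 in CD103+ cells, against 144.8, 135.8 and 129.1 in CD103- cells. These include background and are not scaled between arrays, so no fold is given.

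**Figure D2:**
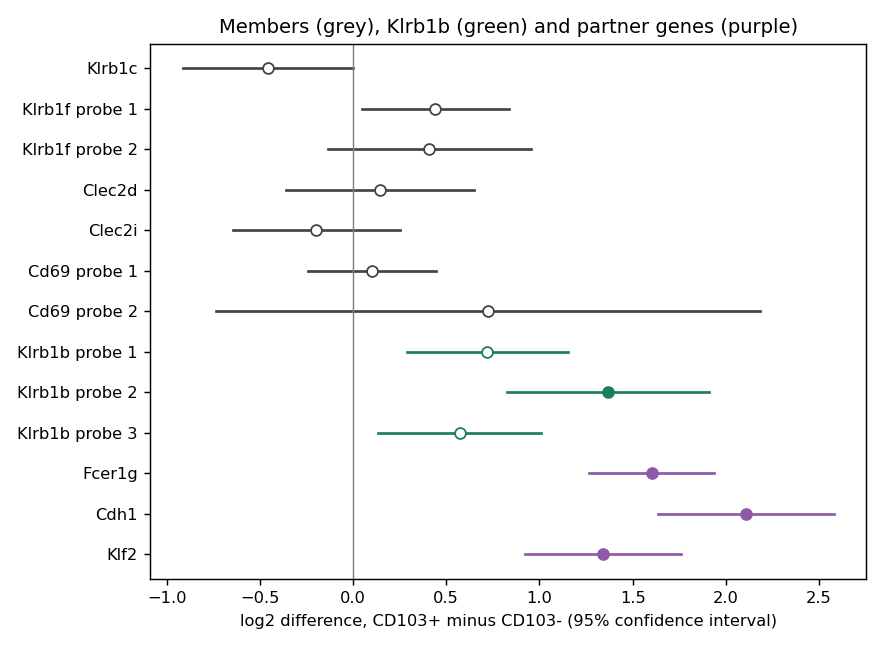
Log2 difference, CD103+ minus CD103-, with its 95% confidence interval, for the 7 tested probes of the members, 3 probes of Klrb1b and the partner genes Fcer1g, Cdh1 and Klf2; filled circles passed an adjusted p of 0.05. All member circles are open, from -0.46 for Klrb1c to 0.72 for Cd69 probe 2.

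Among the ligands, Clec2d, which encodes Clr-b, was bright on every array. Its deposited signals were 15048, 19993 and 10188 in CD103+ cells, against 14657, 3852 and 3150 in CD103- cells (ILMN_2603647), where these signals are not scaled between arrays. After normalization the log2 values were 13.48, 13.43 and 13.31 in CD103+ cells, against 13.70, 13.16 and 12.93 in CD103- cells. CD103- arrays held both the highest and the lowest value, and the groups overlapped. The log2 difference was 0.14 (SE 0.215, 95% confidence interval -0.36 to 0.65, adjusted p = 0.787), an interval with both signs. Against CD103- array 1 alone (n = 1), which held the highest value of all 6 arrays, it was -0.30.

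Clec2i, the gene of Clr-g, had log2 values of 8.34, 8.55 and 8.68 in CD103+ cells, against 8.44, 8.72 and 9.01 in CD103- cells (ILMN_1252488). The groups overlapped, with a log2 difference of -0.20 (SE 0.191, 95% confidence interval -0.65 to 0.25, adjusted p = 0.663). Against CD103- array 1 alone (n = 1), the lowest of the CD103- arrays here, it was 0.09. The receptor Klrb1f and its ligand Clec2i were both detected in both populations, and neither passed the test.

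CD69 was represented by a pair of probes that behaved differently. The brighter one (ILMN_1218240) gave 10.87, 11.18 and 10.96 in CD103+ cells, against 10.97, 10.92 and 10.82 in CD103- cells, with overlapping groups. Its log2 difference was 0.10 (SE 0.147, 95% confidence interval -0.24 to 0.45, adjusted p = 0.780). Its SD over all 6 arrays was 0.125, at percentile 9.38 among tested probes, whose median SD was 0.276. The interval leaves out a CD103+ level more than 0.45 log2 units above that of CD103- cells on this probe.

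The dimmer Cd69 probe (ILMN_2586179), annotated to a different sequence record of the gene, gave 7.74, 8.68 and 7.90 in CD103+ cells, against 5.90, 8.50 and 7.75 in CD103- cells. Its SD over 6 arrays was 0.988, at percentile 99.0 among tested probes. CD103- array 1 stood more than a log2 unit below the other arrays, as it did not on the brighter probe. The log2 difference was 0.72 (SE 0.623, 95% confidence interval -0.74 to 2.18, adjusted p = 0.624), and -0.02 without CD103- array 1. Against that array alone (n = 1) it was 2.21 (adjusted p = 0.0636), and 1.53 with array brightness as a covariate. The value for this probe therefore depended on CD103- array 1.

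Klrg1 was not detected on any of the 6 arrays. Its detection p was 0.0620, 0.0609 and 0.0865 on CD103+ arrays, against 0.221, 0.951 and 0.784 on CD103- arrays (ILMN_2944755). The CD103+ values came closest to the threshold of 0.05, but a level below background has no fold. Of the 10 probes, 2 were detected on no array, the other being Klrb1f probe 3.

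**Figure D3:**
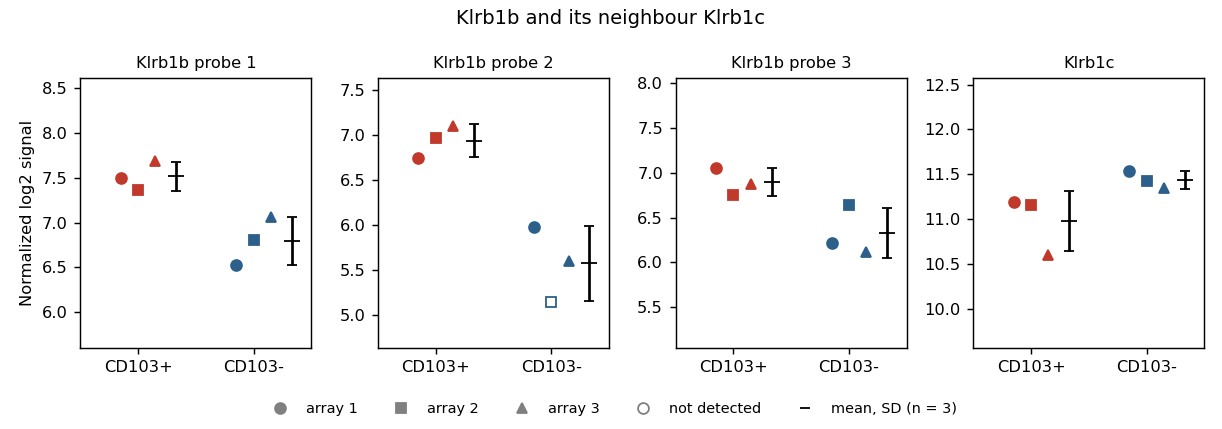
Normalized log2 signal by array of the 3 tested Klrb1b probes and of the neighbouring gene Klrb1c, CD103+ left of CD103-, with the mean and SD (n = 3) and an open symbol where a probe was not detected. All 3 Klrb1b probes lie higher on every CD103+ array than on any CD103- array, and Klrb1c lies lower. Of all tested probes 13.0% lie higher and 8.92% lower without overlap.

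Of the 11 other Klrb1 and Clec2 family genes listed, 5 had a probe and Klrb1b and Clec2e were measured. Klrb1b, listed by RefSeq with NKR-P1D as a synonym, gave log2 values of 6.74, 6.97 and 7.11 in CD103+ cells, against 5.97, 5.14 and 5.59 in CD103- cells on probe 2 (ILMN_1226510). This probe was 2.58-fold higher in CD103+ cells (log2 difference 1.37, SE 0.231, limma adjusted p = 0.0450), or by 1.20 with the undetected CD103- array 2 at its lowest detected signal. With the replicate number as a block its adjusted p was 0.101, and it passed in 11 of 22 alternatives (its adjusted p lying at 0.00504 and upward). Over those settings its log2 difference ran from 0.47 without background correction to 1.81 with median scaling, and it was 0.97 against CD103- array 1 alone (n = 1, adjusted p = 0.118). Leaving out any 1 CD103+ array gave an adjusted p of 0.156 to 0.218, and leaving out CD103- array 2 or 3 gave 0.0728 or 0.0994.

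Klrb1b probes 1 and 3 did not pass, at 0.72 (ILMN_2646358, adjusted p = 0.143) and 0.57 (ILMN_2731002, adjusted p = 0.227). The arrays of the populations did not overlap on any of the 3 tested probes of 5 annotated to the gene, and the other 2 were not detected. Over all tested probes 13.0% were higher in CD103+ cells without overlap, and these 3 probes read the same gene on the same arrays. By its brightest probe, the rule used for gene counts, Klrb1b did not pass. Genes of this family are alike in sequence, and how far a probe of one takes up transcript of another was not tested. Clec2e, which encodes Clr-a, lay at 0.20 (adjusted p = 0.769), detected on 3 of 6 arrays.

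Relative to Klrb1c on the same array, Klrb1f probe 1 was higher in CD103+ cells by 0.90 log2 units (exact permutation p = 0.1, the smallest possible, n = 3 each) and Klrb1b probe 1 by 1.18 (exact permutation p = 0.1), a comparison chosen after the values were seen. The groups did not overlap in either case. The difference was positive in all 22 alternatives, which are not independent checks. Other detection filters, the intensity trend and the replicate block leave this difference unchanged, and the median scalings all give it the same value. Of all other tested probes, 45.3% also stood higher relative to Klrb1c with no overlap, so this was common on these arrays.

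Among the signalling partners of the receptors, 1 of 8 measured genes was higher, with 1.38% of all measured genes called in either direction. It was Fcer1g, which encodes the gamma chain used by NKR-P1C, at 12.55, 12.67 and 12.47 in CD103+ cells, against 10.93, 11.10 and 10.86 in CD103- cells (log2 difference 1.60, SE 0.143, adjusted p = 0.00518). Fcer1g is also a gene of myeloid cells. The macrophage list moved the same way, and its part in this value was not tested. The gene thus differed while the receptor gene Klrb1c did not pass. The phosphatase gene Ptpn6, which acts downstream of inhibitory receptors, lay at 0.03 (adjusted p = 0.935) on the brighter of its probes. Over these 8 genes the median was -0.04, and Lck was not matched to a probe.

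Of 2 measured cadherin ligands of KLRG1, Cdh1, the gene of E-cadherin, was higher and Cdh2 did not pass (0.57, adjusted p = 0.396). Of all measured genes 1.38% were called. The Cdh1 probe ILMN_1227162 was not detected on any array. On its probe ILMN_2628629, Cdh1 had log2 values of 9.77, 10.14 and 9.59 in CD103+ cells, against 7.92, 7.79 and 7.46 in CD103- cells (log2 difference 2.11, SE 0.201, adjusted p = 0.00528). The part of the macrophage genes in this value and in that of Klf2 was not tested. Transcript of this ligand was thus present in both populations, where Klrg1 was at background.

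Of 4 measured thymic exit genes 1 was higher, with 1.38% of all measured genes called in either direction. It was Klf2, which encodes a transcription factor that induces S1pr1. Klf2 lay at 10.46, 10.75 and 10.77 in CD103+ cells, against 9.10, 9.57 and 9.29 in CD103- cells (log2 difference 1.34, SE 0.179, adjusted p = 0.0199). It lost the call when any 1 CD103+ array was left out (adjusted p 0.0766 to 0.123) and without CD103- array 3 (0.0579). S1pr1, whose product CD69 binds, was not detected on any array. None of 5 measured genes for reported CD69 ligands passed limma's test, 1 at an unadjusted p under 0.05, and Lgals1, the gene of galectin-1, lay at 0.40 (adjusted p = 0.243). None of 8 measured early activation genes passed either, 1 with a positive and 7 with a negative difference. The 3 at an unadjusted p under 0.05 were Fos (0.82, adjusted p = 0.149), Junb (-0.36, adjusted p = 0.286) and Il2ra (-0.90, adjusted p = 0.160). Over all tested probes 15.1% met that unadjusted threshold. Like the brighter Cd69 probe, these activation genes gave no call between the populations.

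For 3 members the genes with the most alike pattern were sought, by the root mean square distance between log2 profiles centred over 6 arrays, divided by the SD of the member. For Klrb1c these were Atp13a1 (0.250), Fam160a2 (0.271) and Invs (0.281). For Cd69 they were Entpd7 (0.281), Ash2l (0.317) and Chd9 (0.336). For Klrb1f they were Tfb2m (0.149), Slc35d2 (0.191) and Ripor2 (0.213). None of these genes passed the test, with adjusted p from 0.261 to 0.894.

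**Figure D4:**
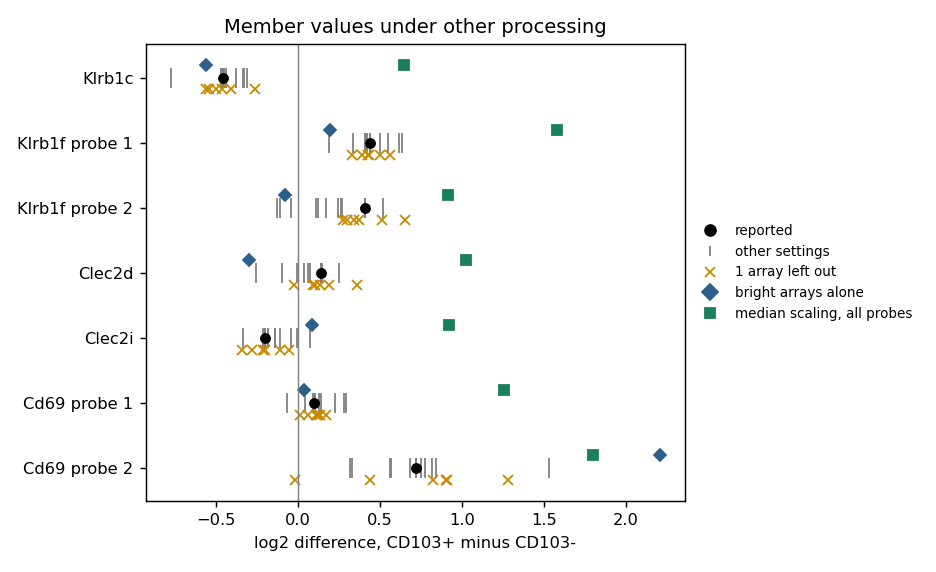
Log2 difference, CD103+ minus CD103-, of the 7 tested member probes as reported (circles), with each array left out (crosses), in the bright arrays alone, with 1 CD103- array (diamonds), with median scaling over all probes (squares) and under the other settings (ticks). Klrb1c stays below 0 and Klrb1f probe 1 above 0 apart from the square of Klrb1c, while the Clec2d values fall on both sides of 0.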

How the data were processed

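Total RNA was labelled as biotinylated cRNA and hybridised to Illumina mouse arrays, per the labels' protocols. The deposited intensity values are 1 signal per probe and array, not normalized and with background included, each beside a detection p-value, per the file headers. The deposited log2 values are the authors' own, and how they were scaled is not given in the sources used here. Of 45281 lines, 18 shifted by annotation text were left out. Probes were named from the array annotation, updated through RefSeq (34874 with a single symbol, 18 with several, 10371 with none).

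The function neqc (limma 3.58.1, R 4.3.3, offset 16) corrected background, quantile-normalized and took log2. Probes were filtered at a detection p under 0.05 on at least 3 arrays, and tested with lmFit and eBayes, two-sided, CD103+ minus CD103-, on all kept probes, with Benjamini-Hochberg adjustment. The procedure was run on simulated data with independent noise of equal SD on every probe and changes larger than any member difference. Array brightness and pairing were not simulated, and smaller changes were not tried. The named genes were all member probes, listed family and partner genes past the threshold, Fcer1g, Cdh1, S1pr1, Klf2 and Itgae, and the 3 most alike genes of Klrb1c, Cd69 and the other member with the largest SD. Other genes were named after their values were seen. Members and lists were chosen with earlier results of these data known.

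Same-numbered arrays of the populations had deviations from their group means that correlated at 0.170, 0.125 and 0.305 across probes, against -0.231 to 0.0824 for unlike numbers. The labels state no pairing. Each of these 3 correlations exceeded 0.1, so a fit that pairs the arrays by number was added, as an alternative only. The reported limma tests, intervals and permutation p-values treat the arrays as unpaired. Under the paired fit 83 of all tested probes passed the threshold, against 206 as reported. Klrb1b probe 2 lost its call there (limma adjusted p = 0.101), and the count of member probes past the threshold stayed at 0. The number of arrays limits the precision, and limma p-values weigh the group difference against the spread between these samples.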

Additional observations from a re-analysis of the deposited data

How the results depend on the processing

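The count of member probes past the threshold stayed at 0 in all settings except median scaling over all probes, which gave 3 (the brightest Klrb1f probe and both Cd69 probes), and moved the median of all tested probes by 0.96. The count over all probes, 206 as reported, was 321 without background correction, 7154 with median scaling, 68 with it centred, 313 with the authors' values, 369 with an intensity trend, 397 with array weights, 83 under the replicate block, 8 with array brightness as a covariate, 135 in the bright arrays alone (3 CD103+ arrays and 1 CD103- array, assumed to vary alike) and 60 at an adjusted p of 0.01. Leaving out 1 array gave 52 to 857 over all probes and 0 to 0 member probes. Among the members and the probes of Klrb1b, Clec2e, Fcer1g, Cdh1 and Klf2, the replicate block changed the call of Klrb1b probe 2 (adjusted p = 0.101) and no other. The cause of these shifts was not tested.

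Of 154 recomputed member values, 136 kept direction and side, 15 changed sign and 3 newly passed. The other detection filters, the intensity trend and the replicate block leave each log2 difference as reported, so only the call could change there. Klrb1f probe 2 turned to -0.0430 with centred median scaling, -0.11 with median scaling over kept probes, -0.13 with the brightness covariate and -0.0778 in the bright arrays. Cd69 turned to -0.0636 on the brighter probe with the covariate, and Klrb1c to 0.65 with median scaling over all probes. Clec2i turned to 0.92 with that scaling, 0.0717 with the covariate and 0.0866 in the bright arrays. Clec2d turned to -0.0042 with median scaling over kept probes, -0.10 in the centred authors' values, -0.25 with the covariate and -0.30 in the bright arrays. Clec2e turned to -0.55, -0.62, -0.0244, -0.11 and -0.14 with centred median scaling, median scaling over kept probes, the centred authors' values, the covariate and the bright arrays. With 1 array left out the dimmer Cd69 probe lay at -0.0194 to 1.28, Clec2d at -0.0230 to 0.36 and Clec2e at -0.10 to 0.36. With the covariate Cdh1 and Fcer1g lost their call (adjusted p = 0.144 each) at log2 differences of 1.69 and 1.54. Klf2 lost it with centred median scaling (0.129) and the covariate (0.242), at 1.53 and 1.51. Median scaling over kept probes, and the alternatives for genes outside the 7, were chosen after seeing the data. Signals of Klrb1a and Klrg1 over background were too low for a value.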
